A study of Mus musculus with 4 samples.

Results

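A set of 10 genes of the circadian clock were followed by gene name through the table of all genes: Arntl, Npas2, Per1, Per2, Per3, Nr1d1, Nr1d2, Dbp, Tef and Ciart. All were found among the 54078 features. The question was whether the kidney pools of the 2 genotypes stood at different points of the daily cycle. Kidney RNA was sequenced at day 3 after bilateral I/R (bI/R), in which the blood supply of both kidneys was clamped for 30 min. Of the 4 libraries, 2 came from injured Apela Ksp KO mice, in which Apela flox/flox is deleted by a Cre under the Ksp-cadherin promoter of renal tubular epithelium, and 2 from injured Apela flox/flox littermates without Cre (WT). Every library was a pool of RNA from 3 adult male mice, so n = 2 counts pools and no mouse was measured on its own. The labels give the strain as C57BL/6 x 129S4/SvJae, whereas the study's methods describe both alleles in C57BL/6. The text of the series speaks of adipose tissue, while the labels say kidney. The hour of day at which mice were killed is not given in the sources used here. Some mice died before day 3. The study reports significantly lower survival of Apela Ksp KO mice than of WT mice after bI/R. Whether these deaths bear on the values of the pools was not tested. All 4 libraries came from injured kidneys, so none of uninjured kidneys was analysed here.

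The clock of a cell is a feedback loop of transcription. BMAL1, encoded by Arntl, pairs with CLOCK or its relative NPAS2 and switches on genes that carry E-boxes. Among these are the Per and Cry genes and Ciart (encoding CHRONO), whose products shut BMAL1 down, the Nr1d genes (encoding REV-ERB alpha and beta), which repress Arntl and Npas2 through ROR elements, and Dbp and Tef, which act on output genes through D-boxes. In peripheral organs Arntl and Npas2 therefore peak at roughly the opposite time of day to Nr1d1, Dbp and the Per genes. In the kidney this clock is known for its control of the daily rhythm of salt and water transport by the tubules.

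The elements through which the loop works were looked for in promoter windows of RefSeq (GRCm38.p6), which run from 250 bases before a transcription start to 50 bases after it. Windows were found for 9 of the 10 genes, all but Per2, and numbered 12. The motifs, searched on both strands, were the E-box CACGTG, the noncanonical E-box CACGTT, the ROR element core AGGTCA, the D-box as TTATGTAA or TTACGTAA, and the cAMP element TGACGTCA. No base was shared by 2 matches in these windows. The windows shown are those of Arntl and Nr1d2, which both hold a ROR element core, and those of Ciart and Per3, which held the most E-boxes and D-boxes. Matches are in capitals.
Arntl, chr7:113207261-113207560, plus strand: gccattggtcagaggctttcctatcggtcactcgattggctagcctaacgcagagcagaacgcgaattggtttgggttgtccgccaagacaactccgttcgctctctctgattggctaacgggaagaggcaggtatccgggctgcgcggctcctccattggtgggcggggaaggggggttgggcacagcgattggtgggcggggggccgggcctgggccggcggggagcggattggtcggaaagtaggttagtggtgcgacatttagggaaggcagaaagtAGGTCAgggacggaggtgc
Nr1d2, chr14:18239057-18239356, minus strand: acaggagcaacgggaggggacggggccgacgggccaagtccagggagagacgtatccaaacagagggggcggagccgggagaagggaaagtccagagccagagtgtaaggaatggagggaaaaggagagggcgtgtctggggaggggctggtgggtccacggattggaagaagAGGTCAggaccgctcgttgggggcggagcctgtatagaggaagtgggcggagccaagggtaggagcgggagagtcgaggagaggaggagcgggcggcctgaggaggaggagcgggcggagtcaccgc
Ciart, chr3:95882179-95882478, minus strand: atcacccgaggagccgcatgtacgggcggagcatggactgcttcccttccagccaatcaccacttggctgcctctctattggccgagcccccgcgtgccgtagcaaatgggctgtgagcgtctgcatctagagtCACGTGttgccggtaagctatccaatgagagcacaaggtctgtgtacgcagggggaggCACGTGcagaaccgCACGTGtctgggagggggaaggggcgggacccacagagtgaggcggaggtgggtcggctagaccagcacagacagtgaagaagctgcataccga
Per3, chr4:151044616-151044915, minus strand: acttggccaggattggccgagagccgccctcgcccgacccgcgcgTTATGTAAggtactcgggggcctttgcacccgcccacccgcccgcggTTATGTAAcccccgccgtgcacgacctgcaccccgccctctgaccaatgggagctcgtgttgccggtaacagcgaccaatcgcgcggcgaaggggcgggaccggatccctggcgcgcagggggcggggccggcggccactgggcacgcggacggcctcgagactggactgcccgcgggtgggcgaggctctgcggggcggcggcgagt

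Ciart held 3 E-boxes, and 1 each was found in both windows of Tef and in the upstream window of Per1. An E-box was present in 7.15% of all 32851 windows. The D-box occurred in 1.06% of windows, and Per3 held it 2 times. A ROR element core was found in 1 of the 2 Arntl windows, in Nr1d2 and in Per1, against 16.3% of all windows. Nr1d1 held 1 noncanonical E-box, a motif of 4.68% of windows. No listed motif was found in the windows of Dbp and Npas2, and the cAMP element, in 1.79% of all windows, was in none of the 12. These matches describe letters only, and elements outside the windows were not searched.

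The pools held between 16045724 and 16927742 reads on genes, given back from the deposited FPKM. FPKM is fragments per kilobase of gene, scaled to a total for each pool. This total was below the reads on genes in WT pool 1 and both KO pools and above them in WT pool 2. Replicate pools were further apart than the counting error of reads alone would give (chi-square per gene 31.5 for WT and 24.5 for KO). Apela, the deleted gene, had an FPKM of 5.27 and 4.57 in WT pools 1 and 2 and of 0.536 and 0.245 in KO pools 1 and 2, as labelled. Kidney markers were abundant, with an Umod FPKM of at least 788 and an Lrp2 FPKM of at least 70.4, whereas the 6 adipocyte markers together had an FPKM of 1.56 and 0.375 in WT and of 8.27 and 3.19 in KO. Most of that was Cidec, a lipid droplet gene, at 1.37 and 0.282 in WT and 7.92 and 2.79 in KO, and Plin1 had 4 and 1 reads in WT and 27 and 9 in KO. Ucp1 had 0 reads in every pool and Adipoq 0 reads in 3. WT pool 2 stood apart in macrophage and fibroblast markers. The 6 macrophage markers summed to an FPKM of 284 there against 124, 133 and 110 in WT pool 1 and KO pools 1 and 2, with none at 0. The 5 fibroblast markers, each highest in WT pool 2, summed to 269 there against 134, 161 and 181. The 7 proximal tubule markers summed to 1838 and 1377 in WT and to 1129 and 1686 in KO, a sum in which Slc34a1 weighed most. KO pool 1 was lowest for 4 of the 7 and WT pool 2 for 3, and without Slc34a1 the sum was lowest in WT pool 2, at 688 against 764 in KO pool 1.

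Arntl and Npas2, the activators of the loop, each had their 2 highest values in KO, where the mean was 1.58-fold and 1.61-fold that of WT. Of the 8 genes that act as repressors or outputs, Nr1d1 was higher in both KO pools, Nr1d2, Dbp and Per2 were lower in both, and Per1, Per3, Ciart and Tef overlapped. None of these differences passed the test. With limma on log2(FPKM + 0.5) and Benjamini-Hochberg adjustment over 15414 genes, 0 of the 10 genes had an adjusted p-value under 0.05, as did 0% of all genes tested. Their adjusted p-values lay between 0.786 and 0.944. At an unadjusted p under 0.05 there were 0 of the 10 genes, against 974 of 15414 genes (6.32%). Voom weights on the recovered reads also gave 0 genes at an adjusted p under 0.05, and 2 of the 10 genes, Arntl and Npas2, at an unadjusted one, as were 970 of all 15414 genes in that fit. KO lay entirely above WT for 3 of the 10 genes and entirely below it for 3, where 19.7% and 18.1% of all genes did so. Without WT pool 2, which stood apart in macrophage and fibroblast markers, these numbers were 3 and 5 of 10 (34.3% and 32.0% of all genes), and without KO pool 1 they were 3 and 4 (34.8% and 32.9%). Without WT pool 1 they were 4 and 4 (37.7% and 35.9%), and without KO pool 2 they were 4 and 5 (35.1% and 32.3%), Per1 being the gene added above in both. With 2 pools against 2, an exact permutation test cannot give a two-sided p under 0.333.

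**Figure D1:**
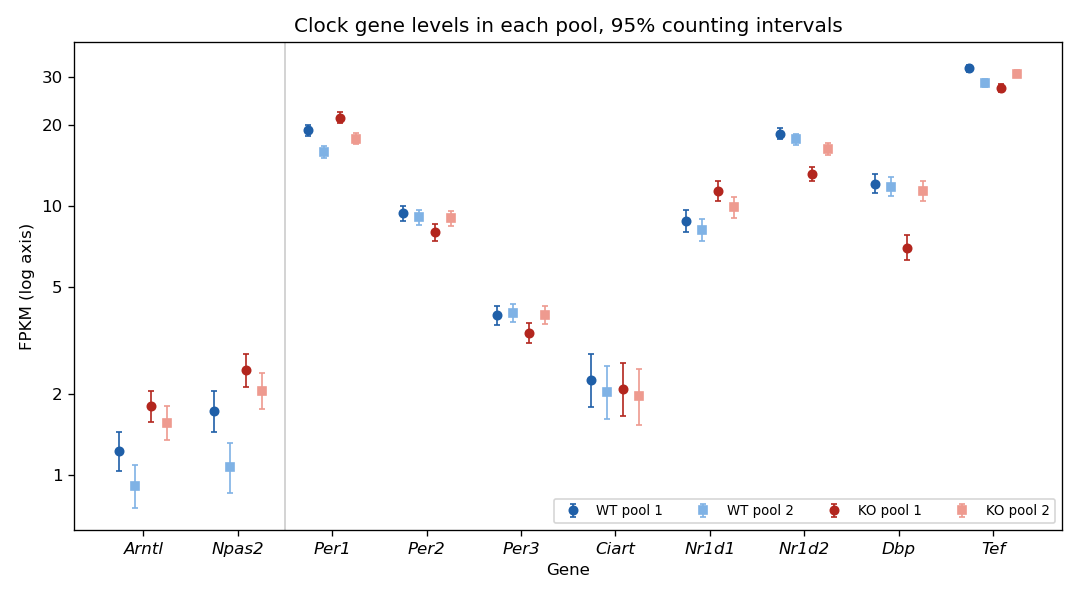
FPKM on a log axis of the 10 clock genes in WT pools 1 and 2 (blue) and KO pools 1 and 2 (red), with bars for the exact 95% Poisson interval of the reads, which covers counting error only. Arntl and Npas2, left of the line, lie higher in both KO pools, whereas Dbp is low in KO pool 1 alone, at 6.99 against 11.3 to 12.1 elsewhere.

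Arntl (ENSMUSG00000055116) lies on the plus strand of chromosome 7 of GRCm38 from 113207465 to 113314126. WT pools 1 and 2 had an FPKM of 1.22 and 0.912, and KO pools 1 and 2 of 1.80 and 1.56. It was the lowest of the 10 genes in every pool, resting on 118 to 227 reads. The means were 1.07 ± 0.221 (SD, n = 2) and 1.68 ± 0.170 (SD, n = 2), a log2 difference of 0.48 (standard error 0.20, 95% interval -0.033 to 1.00, adjusted p = 0.786). The lowest pool was WT pool 2 and the highest KO pool 1, and the exact 95% Poisson interval of WT pool 1, 1.03 to 1.44, met that of KO pool 2, 1.35 to 1.80.

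Npas2 (ENSMUSG00000026077), the relative of Clock, lies on the plus strand of chromosome 1 from 39193731 to 39363236. WT had an FPKM of 1.73 and 1.07, and KO of 2.45 and 2.06. These are means of 1.40 ± 0.466 (SD, n = 2) and 2.25 ± 0.275 (SD, n = 2). The log2 difference was 0.55 (standard error 0.23, 95% interval -0.057 to 1.17, adjusted p = 0.786). The exact 95% Poisson interval of WT pool 1, 1.45 to 2.05, met that of KO pool 2, 1.75 to 2.40. WT pool 2 was again the lowest, and without it the log2 difference was 0.30, while without WT pool 1 it was 0.81. For Arntl the corresponding values were 0.34 and 0.63. WT pool 2 was also the pool with the most macrophage and fibroblast marker RNA. Of 5 tubular injury markers, 3 had an unadjusted p under 0.05, against 6.32% of all genes, and 0 an adjusted one (limma). Lcn2, encoding the injury marker NGAL, had an FPKM of 133 and 95.2 in WT and of 249 and 273 in KO, and Krt20 one of 35.6 and 36.8 in WT and of 60.0 and 61.0 in KO, both higher in KO like Arntl and Npas2. Vcam1 was lower in both KO pools, at 14.6 and 31.0 in WT and 10.5 and 2.59 in KO, and the pools of Havcr1 and Spp1 overlapped. All 6 endothelial markers had a log2 difference above 0, as did 7917 of all 15414 genes, with 0 at an unadjusted p under 0.05, and summed to 52.5 and 66.3 in WT and 62.4 and 76.1 in KO. The marker lists were chosen with earlier results of these data known, so their counts are a description only. The part of these markers in the differences of Arntl and Npas2 was not tested. In pooled tissue RNA, fewer cells of a type and less RNA per cell cannot be told apart.

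Among the repressors of the Per family, Per1 (ENSMUSG00000020893; chromosome 11, plus strand, 69095217 to 69109960) had the highest level. Its FPKM was 19.1 and 15.8 in WT and 21.2 and 17.7 in KO, and the pools overlapped (log2 difference 0.15, 95% interval -0.26 to 0.57). Per2 (ENSMUSG00000055866; chromosome 1, minus strand, 91415982 to 91459324), which together with Per1 and the CRY proteins forms the main repressor complex, had an FPKM of 9.36 and 9.06 in WT and of 7.96 and 8.96 in KO. Both KO pools were lower, KO pool 2 by a margin inside its counting interval of 8.37 to 9.58 (log2 difference -0.12, 95% interval -0.43 to 0.19). Per3 (ENSMUSG00000028957; chromosome 4, minus strand, 151003652 to 151044665), which lies within Camta1 on the same strand, had an FPKM of 3.91 and 4.01 in WT and of 3.36 and 3.93 in KO, so that KO pool 1 alone was low (log2 difference -0.11, 95% interval -0.46 to 0.24). Ciart (ENSMUSG00000038550; chromosome 3, minus strand, 95878503 to 95882251), with 72 to 82 reads a pool and an antisense gene over its whole length, had an FPKM of 2.26 and 2.03 in WT and of 2.09 and 1.96 in KO (log2 difference -0.066, 95% interval -0.45 to 0.32). The 95% intervals of these 4 genes include differences of up to 0.57 in size on the log2 scale. With each pool left out in turn the log2 difference ranged from 0.024 (without WT pool 2) to 0.28 for Per1, from -0.20 to -0.038 (without KO pool 1) for Per2, from -0.21 to -0.0094 (without KO pool 1) for Per3 and from -0.13 to -0.0039 (without WT pool 1) for Ciart.

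Of the REV-ERB genes, neither passed the test. Nr1d1 (ENSMUSG00000020889; chromosome 11, minus strand, 98767932 to 98775333) had an FPKM of 8.80 and 8.12 in WT and of 11.3 and 9.87 in KO. Both KO pools were higher, the WT mean being 8.46 ± 0.476 (SD, n = 2) and that of KO 10.6 ± 1.05 (SD, n = 2) (log2 difference 0.31, standard error 0.13, 95% interval -0.025 to 0.64, adjusted p = 0.786). Nr1d2 (ENSMUSG00000021775; chromosome 14, minus strand, 18204054 to 18239127) had an FPKM of 18.5 and 17.6 in WT and of 13.1 and 16.2 in KO. Both KO pools were lower, KO pool 1 more so, from a WT mean of 18.1 ± 0.634 (SD, n = 2) to 14.7 ± 2.23 (SD, n = 2) (log2 difference -0.30, standard error 0.14, 95% interval -0.68 to 0.081, adjusted p = 0.797). Without KO pool 1 the log2 difference of Nr1d2 was -0.15 and without KO pool 2 -0.45. For Nr1d1 the corresponding values were 0.21 and 0.40. The exact 95% Poisson interval of Nr1d1 in KO pool 2, 9.02 to 10.8, met that in WT pool 1, 7.99 to 9.66. That of Nr1d2 in KO pool 2, 15.4 to 17.1, met that in WT pool 2, 16.8 to 18.5. The log2 ratio of Nr1d1 to Nr1d2 within a pool, chosen after the values were seen, was -1.07 and -1.12 in WT and -0.21 and -0.72 in KO, a difference of 0.63 that was 0.38 without KO pool 1. The last 1075 nt of Nr1d1 overlap Thra, the thyroid hormone receptor alpha gene, on the opposite strand. Whether reads were counted by strand is not given in the sources used here, so reads in the overlap cannot be assigned to 1 of these genes. Thra had an FPKM of 7.89 and 7.99 in WT and of 9.80 and 8.42 in KO, higher in both KO pools like Nr1d1.

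Dbp and Tef encode PAR bZIP activators that bind D-boxes and carry the rhythm to genes outside the loop. Dbp (ENSMUSG00000059824; chromosome 7, plus strand, 45705088 to 45710203) had an FPKM of 12.1 and 11.8 in WT and of 6.99 and 11.3 in KO. KO pool 1 was low and KO pool 2 was close to WT, which gave means of 11.9 ± 0.219 (SD, n = 2) and 9.15 ± 3.06 (SD, n = 2). The log2 difference was -0.40 (standard error 0.24, 95% interval -1.03 to 0.23, adjusted p = 0.799), and it was -0.072 without KO pool 1 and -0.73 without KO pool 2. KO pool 1 had 350 Dbp reads against 550 to 606 in the other pools, and its exact 95% Poisson interval of 6.28 to 7.76 did not reach those of the others. KO pool 1 was also lowest for 4 of the 7 proximal tubule markers, whose part in the Dbp value was not tested. WT pool 2, with a Dbp FPKM of 11.8, was lowest for the other 3. Dbp overlaps Sphk2, encoding sphingosine kinase 2, on the opposite strand over 737 nt, and Sphk2 had an FPKM of 13.0 and 13.2 in WT and of 12.1 and 13.1 in KO. Tef (ENSMUSG00000022389; chromosome 15, plus strand, 81802421 to 81826863), the most abundant of the 10 genes in every pool, had an FPKM of 32.4 and 28.5 in WT and of 27.3 and 30.9 in KO, and the pools overlapped (log2 difference -0.063, 95% interval -0.41 to 0.29).

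Pools of 1 genotype also differed from each other. KO pool 1 was the lowest pool for 5 genes (Per2, Per3, Nr1d2, Dbp and Tef) and the highest for 4 (Arntl, Npas2, Per1 and Nr1d1). In each of the 6 genes whose pools did not overlap, KO pool 1 was farther from the WT mean than KO pool 2. The share of all genes with these patterns is not given here, so they are not a trait of the clock genes. The order of the levels also differed. Dbp ranked 4 of the 10 genes in both WT pools and in KO pool 2 and 6 in KO pool 1, whereas Nr1d1 ranked 6 in both WT pools and 5 and 4 in KO pools 2 and 1. Npas2 was below Ciart in both WT pools and above it in both KO pools.

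**Figure D2:**
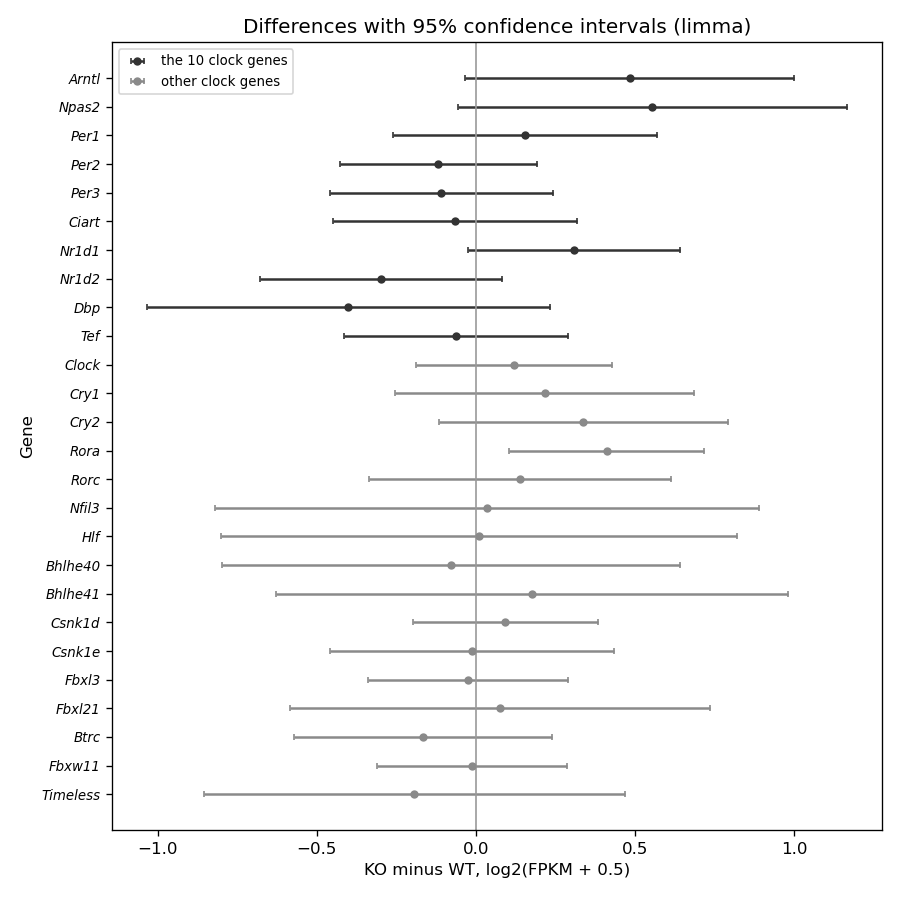
Difference between KO and WT on the log2(FPKM + 0.5) scale for the 10 clock genes (dark) and 16 other clock genes (grey), with limma's unadjusted 95% confidence intervals. The intervals of the 10 genes all include 0, from 0.55 for Npas2 to -0.40 for Dbp, and among the other genes that of Rora, at 0.41, lies above 0.

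Because the arms of the loop peak at opposite times, their balance was taken within each pool, where the genes compared share 1 library. The mean of log2(FPKM + 0.5) over Arntl and Npas2 was 0.97 and 0.57 in WT, against 1.38 and 1.20 in KO. Over the 8 repressor and output genes it was 3.42 and 3.32 in WT and 3.23 and 3.36 in KO, and these pools overlapped. The second mean minus the first was 2.45 and 2.75 in WT and 1.85 and 2.16 in KO, a difference between genotypes of -0.59. All of that but -0.074 came from Arntl and Npas2. With each pool left out in turn the difference ranged from -0.74 to -0.44. The log2 ratio of Arntl to Dbp was -3.30 and -3.69 in WT and -1.95 and -2.86 in KO. That of Arntl to Per2 was -2.93 and -3.31 in WT and -2.14 and -2.52 in KO. That of Arntl to Nr1d1 was -2.85 and -3.16 in WT and -2.65 and -2.66 in KO, and that of Npas2 to Nr1d1 was -2.35 and -2.93 in WT and -2.21 and -2.26 in KO. The 4 ratios share genes, and each has Arntl or Npas2 as its first gene. They are therefore not independent of each other or of the higher values of those genes. The share of all gene pairs with a ratio higher in both KO pools is not given here. All 4 ratios were higher in both KO pools, by 1.09 for Arntl to Dbp, 0.79 for Arntl to Per2, 0.34 for Arntl to Nr1d1 and 0.40 for Npas2 to Nr1d1. With each pool left out in turn these differences ranged from 0.64 (without KO pool 1) to 1.54 for Arntl to Dbp, from 0.60 to 0.98 for Arntl to Per2, from 0.19 (without WT pool 2) to 0.50 for Arntl to Nr1d1 and from 0.11 (without WT pool 2) to 0.69 (without WT pool 1) for Npas2 to Nr1d1. Of the 8 repressor and output genes, 0 had an unadjusted p under 0.05 (limma), against 6.32% of all genes, and 2 had a log2 difference above 0 and 6 one below 0, where 7917 and 7497 of all 15414 genes did so. No pool was assigned a clock time, since no library of known hour was used here for comparison. Hour of harvest and genotype cannot be told apart.

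**Figure D3:**
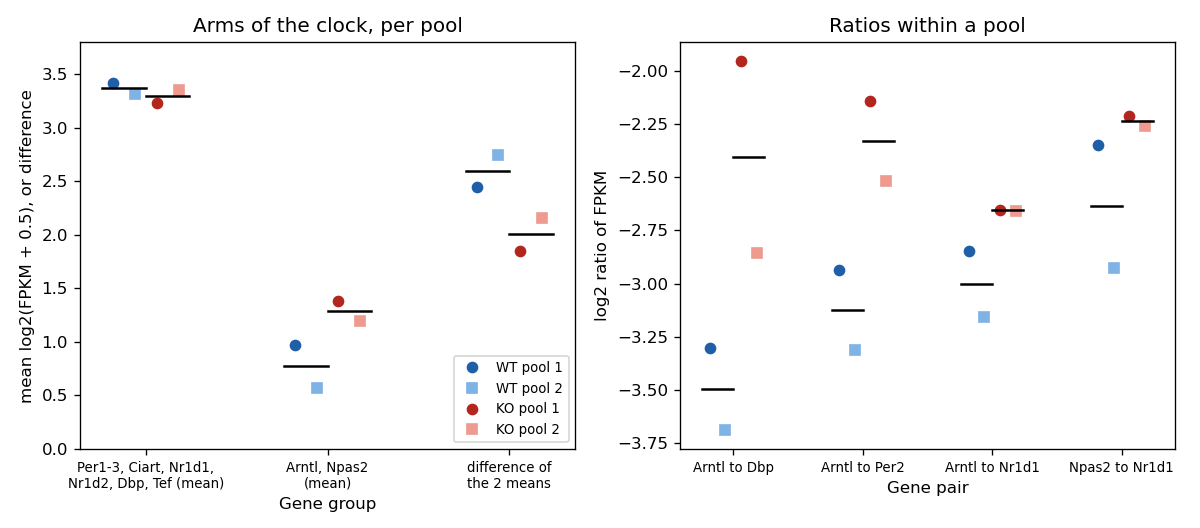
Left, mean log2(FPKM + 0.5) of the 8 repressor and output genes and of Arntl and Npas2 in each pool, and the difference of these means; right, log2 ratios of FPKM for 4 gene pairs. Points are pools and short lines the genotype means, and the differences of the means, 2.45 and 2.75 in WT and 1.85 and 2.16 in KO, do not overlap while the repressor and output means do.

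Of 17 other clock genes, 16 reached the mean FPKM of 0.5 needed for the test, and Rorb, at 2 to 6 reads a pool, did not. None had an adjusted p-value under 0.05 (limma, Benjamini-Hochberg; 0.764 to 0.997), and 1 of the 16, Rora, had an unadjusted p under 0.05, against 6.32% of all genes. Their median log2 difference was 0.055, against 0.0071 over all genes tested and -0.064 over the 10 genes. KO lay entirely above WT for Rora, Cry2, Clock and Csnk1d, 4 of 16 where 19.7% of all genes did so, and entirely below it for Btrc, 1 of 16 where 18.1% did so. Rora, which activates Arntl through the same elements that the REV-ERBs occupy, had an FPKM of 4.82 and 4.41 in WT and of 6.19 and 6.39 in KO (log2 difference 0.41, 95% interval 0.11 to 0.72, adjusted p = 0.764). Clock itself, the partner of BMAL1, had an FPKM of 4.23 and 4.11 in WT and of 4.75 and 4.41 in KO. Of the cryptochromes, which bind the PER proteins, Cry2 had an FPKM of 4.38 and 3.74 in WT and of 5.99 and 4.60 in KO, whereas Cry1 overlapped, at 3.61 and 2.66 in WT and 3.90 and 3.48 in KO. Nfil3, the repressor that opposes DBP at D-boxes, had an FPKM of 9.09 and 7.92 in WT and of 12.1 and 6.20 in KO, highest and lowest in the 2 KO pools. Hlf, the third PAR bZIP gene, had an FPKM of 13.1 and 8.90 in WT and of 8.39 and 14.0 in KO, and was lowest in KO pool 1 like Dbp but nearly as low in WT pool 2.

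Genes that take their rhythm from the clock in many organs numbered 8, and 0 had an adjusted or an unadjusted p under 0.05 (limma), the latter against 6.32% of all genes. Their median log2 difference was 0.29, with 7 of 8 above 0, as were 7917 of all 15414 genes. Nampt, the rate-limiting enzyme of NAD salvage, had an FPKM of 34.7 and 26.0 in WT and of 97.5 and 33.6 in KO, so KO pool 1 alone was high. Por, the electron donor of cytochrome P450 enzymes, had an FPKM of 97.3 and 72.4 in WT and of 102 and 126 in KO, without overlap. Of 8 kidney transport and signalling genes linked to the clock, 7 were tested and 0 had an unadjusted p under 0.05 (limma; median log2 difference 0.11). Scnn1a, the alpha subunit of the epithelial sodium channel, had an FPKM of 39.5 and 23.5 in WT and of 34.1 and 51.0 in KO. Its pools overlapped.

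Per1 also responds to glucocorticoids and to immediate early signals, and other clock genes to temperature, so genes of these responses were set beside them. Of 9 glucocorticoid-responsive genes, Per1 among them, all had a log2 difference above 0, as did 7917 of all 15414 genes, with a median of 0.31 against 0.0071 over all genes, 0 with an adjusted p under 0.05 (limma). An unadjusted p under 0.05 was found for 3 of the 9, Fkbp5, Zbtb16 and Errfi1, against 6.32% of all genes, with log2 differences of 0.97, 0.93 and 0.45. Pdk4 had a larger log2 difference, 1.59, that did not reach it. Fkbp5, a chaperone of the glucocorticoid receptor, had an FPKM of 44.2 and 24.9 in WT and of 72.6 and 58.9 in KO. Of 8 immediate early genes 7 were tested, with a median of -0.27 and 1, Atf3, at an unadjusted p under 0.05 (FPKM 6.79 and 11.3 in WT, 4.66 and 5.60 in KO). Of 7 temperature-responsive genes, the cold-inducible Rbm3 and Cirbp had log2 differences of 0.66 and 0.56 and the chaperone gene Hsph1 one of -0.48, with 2 of the 7, Rbm3 and Hsph1, at an unadjusted p under 0.05 and 0 at an adjusted one (limma). The median of the 7 was -0.045, and the other 4, all heat-shock genes, lay between -0.20 and 0.11. The gene lists were chosen with earlier results of these data known, so their counts beside the share of all genes are a description only. The part of these responses in the values of the clock genes was not tested.

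The genes whose pattern over the 4 pools was most like the mean of each arm were named by the smallest sum of squared differences of centred log2(FPKM + 0.5), among the 7895 genes whose mean FPKM reached 5. For Arntl and Npas2 these were Grpel1, Gatsl3, Mir196a-1, Slc35d2 and Tfcp2l1, with sums from 0.0023 to 0.0065. Grpel1, the nearest, had an FPKM of 26.3 and 20.8 in WT and of 35.5 and 31.6 in KO. For the repressor and output genes they included Gopc, Plekhm2 and Cyb5b, with sums from 0.00013 to 0.00067, where the arm itself varied little. Gopc had an FPKM of 5.48 and 5.03 in WT and of 4.76 and 5.20 in KO. A likeness over 4 pools is a description only.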

How the data were processed

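The members and gene lists were chosen with earlier results of these data known. The authors deposited FPKM per gene and library, from poly-A libraries sequenced and analysed by a company. The submitters' processing notes name HISAT2 2.0.5 and the builds mm10 and GRCm38.p6, and the counting tool is not given in the sources used here. Multiplied by gene length and by the total recovered for the pool, 100% of the nonzero values were whole reads (tolerance 0.01 read). Gene positions of all 10 members equal those of GENCODE M21 (GRCm38). The 10 genes rest on 72 to 4095 reads a pool.

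The genotypes were compared by limma 3.58.1 (R 4.3.3; lmFit, eBayes with trend) on log2(FPKM + 0.5), two-sided and without covariates. A mean FPKM of 0.5 was required, which left 15414 genes, and p-values were adjusted over all of them (Benjamini-Hochberg). Differences on this scale understate those of low genes such as Arntl. The fit was tested on simulated data. P-values set the difference between genotypes against the spread between pools, which eBayes moderates across genes. The spread between mice within a pool was not measured. Balance and ratios of clock genes were given without a test. Named genes were all members, the other clock genes, at most 4 genes of each further list in order of the size of the difference (Umod, Lrp2, Ucp1, Adipoq, Plin1 and Spp1 were chosen as markers after their values were seen), and the 5 genes most like each arm, of which some are not reported here. Alternatives changed the pseudocount (0.1 and 1), the filter (none, or a mean FPKM of 1), the scaling (quantile), the weights (voom), the trend, the replicate block, the biotypes (protein-coding) or left out 1 pool. The counts of non-overlapping genes and the ratios without a pool and the ratio of Nr1d1 to Nr1d2 were chosen after seeing the data. Python 3.11.15 with pandas 2.3.3 and numpy 2.4.6 was used for sequences and counts.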

Additional observations from a re-analysis of the deposited data

How the results depend on the processing

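Under all 13 alternatives, 0 of the 10 clock genes and 0 genes overall had an adjusted p under 0.05 (limma, Benjamini-Hochberg), and the clock genes' adjusted p-values ranged from 0.379 to 0.998. The fits that leave out 1 pool assume that the lone pool varies like the other genotype. The number of genes at an unadjusted p under 0.05 was 974 of 15414 in the main setting, 1538 of 27251 without a filter, 970 with voom weights, 960 without trend, 822 of 12715 with protein-coding genes only, and 1720, 687, 727 and 779 without WT pools 1 and 2 and KO pools 1 and 2. Among the clock genes the number was 0 in the main setting, 2 with voom weights (Arntl and Npas2), 1 without trend and with protein-coding genes only (Arntl), 1 without WT pool 1 (Npas2) and 2 without KO pool 2 (Nr1d2 and Dbp). Tef was the 1 gene of the 10 that changed direction, ranging from -0.15 to 0.028 with each pool left out. The balance of the arms kept its sign, from -0.44 without KO pool 1 to -0.77 with voom weights. The filters, trend, block and biotype choices leave log2 differences as they are by construction.

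The labels give same-numbered pools nothing in common but the number, and the correlation of their deviations was -0.0017 across all genes and 0.64 across the 10 clock genes, which are not independent of each other. Under the replicate block 0 genes had an adjusted p under 0.05 and 932 an unadjusted one, with 1 clock gene, Npas2, among the latter. At 72 to 227 reads a pool for Ciart, Arntl and Npas2, counting error alone limits what can be seen.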
